A study of Mus musculus with 10 samples.

Results

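The genes described here make microRNAs or carry out their silencing, and were read in knee cartilage of wild-type mice and of mice that lack the microRNA Mir324. They were chosen by name, as Drosha, Dgcr8, Xpo5, Dicer1, Tarbp2, Ago1, Ago2, Ago3, Tnrc6a and Tnrc6b, and are 10 of the 35705 genes with a value. All 10 averaged 1 TPM or more over the 10 libraries, which was the filter that left 13841 genes for testing. TPM is transcript abundance corrected for length and scaled to one total in every library, so levels of different genes may be compared on it. The groups were 5 libraries labelled wild-type control and 5 labelled Mir324-null, each from the medial cartilage cap of the knee of 1 untreated mouse. Strain, age, sex, litter and the way the null allele was made were not given in the labels. No gene of the group was called between genotypes at an adjusted p under 0.05. The largest difference was that of Ago2, which was higher in null mice by 0.24 on the log2(TPM + 1) scale, and its adjusted p was 0.484 (limma, Benjamini-Hochberg).

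A microRNA is transcribed as part of a longer RNA that folds into a hairpin. In the nucleus the RNase III enzyme Drosha with its RNA-binding partner Dgcr8 cuts the hairpin out, and exportin 5 (Xpo5) carries it to the cytoplasm. There Dicer, helped by its partner TRBP (Tarbp2), removes the loop, and a single strand is loaded into an Argonaute protein. The loaded Argonaute pairs with messenger RNAs through the seed, bases 2 to 8 of the microRNA, and recruits the GW182 proteins (Tnrc6a, Tnrc6b and Tnrc6c), which bring in the enzymes that shorten the poly(A) tail. Ago2 can in addition cut a fully paired target. Loss of Dicer in cartilage is known to disturb the growth plate.

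The mice lacked a product of this machinery, so both mature strands of Mir324 are shown, 5′ to 3′, from RefSeq on GRCm38.p6, chromosome 11, plus strand. Capitals mark the seed.
miR-324-5p: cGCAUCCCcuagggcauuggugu
miR-324-3p: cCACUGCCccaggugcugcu
The strands lie at chr11:70012060-70012082 and chr11:70012095-70012114. Their seeds pair with GGGATGC and GGCAGTG in a messenger RNA. No value for either mature strand was used, and the genotypes therefore rest on the labels alone.

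Matches to these seeds were looked for on the sense strand of the longest annotated 3′ UTR of each gene. There were 13 in 6 of the 10 genes, 5 for miR-324-5p and 8 for miR-324-3p. Dicer1 held 4, Tnrc6b 4, Ago2 2, and Ago1, Ago3 and Tnrc6a 1 each, while Drosha, Dgcr8, Xpo5 and Tarbp2 held none. Counted as genes, 4 of the 10 held the first motif and 5 the second. Among all 12601 genes tested that have a 3′ UTR, 8.5% held the first motif and 15.4% the second. Several UTRs of this group are long, however. That of Ago3 spans 12742 bases, that of Tnrc6b 11609 and that of Ago2 11064, against a median of 1149 over all genes. Of 35 genes whose UTR was within 0.25 log2 units of that of Ago2 in length, 51.4% held the first motif and 71.4% the second. For the 997 genes as close in length to the UTR of Dicer1, of 3851 bases, the shares were 18.5% and 35.3%. The matches in Dicer1 and in the Argonautes are shown as DNA in windows of 30 bases, with the seed match in capitals, because Dicer1 held the most for miR-324-3p and because the 3 matches followed by an adenosine, the 8mer form, were all in Argonaute genes.
Dicer1, miR-324-5p: gagaacattctGGGATGCctgcagcttgtc
Dicer1, miR-324-3p, upstream: gtgctgtggagGGCAGTGgaggcggggccg
Dicer1, miR-324-3p, middle: ggtctgtactaGGCAGTGttgccagagtca
Dicer1, miR-324-3p, downstream: ggcacaggctgGGCAGTGctccggcactca
Ago1, miR-324-3p, 8mer: cttggagaagaGGCAGTGaaggagaccgct
Ago2, miR-324-5p: ttgagttctaaGGGATGCcatgcgccctgc
Ago2, miR-324-3p, 8mer: cgtgtgtttacGGCAGTGacaagtccgaga
Ago3, miR-324-3p, 8mer: ctgtgcaagcaGGCAGTGaaggggaatggg
In GRCm38 the capitals of the Ago1 match lie at chr4:126436191-126436197, those of Ago2 at chr15:73106412-73106418 and chr15:73106282-73106288, and those of Ago3 at chr4:126336710-126336716. The Dicer1 matches lie at chr12:104688924-104688930, chr12:104691099-104691105, chr12:104690631-104690637 and chr12:104689005-104689011. All 4 genes are on the minus strand. A match is a string in the annotation and not a measured site.

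The group also hosts microRNAs of its own. Dgcr8 carries a pair of hairpins in its exons, and cutting of Dgcr8 messenger RNA at such hairpins by the Microprocessor, the complex of Drosha and Dgcr8, is a known feedback loop. Their mature strands are given as RNA with the seed in capitals.
miR-1306-5p: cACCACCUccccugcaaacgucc
miR-1306-3p: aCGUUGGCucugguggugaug
miR-3618-5p: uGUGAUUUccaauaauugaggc
miR-3618-3p: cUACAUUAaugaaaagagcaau
The miR-1306 hairpin (chr16:18284239-18284317, minus strand, GRCm38) lies in coding sequence, and the miR-3618 hairpin (chr16:18284550-18284637) lies in an exon outside the coding part. Transcripts that contain the miR-1306 hairpin held 69.9% ± 5.37 of the TPM of Dgcr8 (mean ± SD, n = 10), and those that contain the miR-3618 hairpin 65.2% ± 5.05. Most of the Dgcr8 signal was therefore assigned to transcripts that include both hairpins. An intron of Xpo5 holds miR-693, and a non-coding stretch of an exon of Tnrc6b holds miR-5113. Neither these nor the Dgcr8 microRNAs were measured as mature strands, since the table holds long transcripts.

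The libraries were checked before the genes were compared. Markers of cartilage were present, with a summed level of the 11 chondrocyte genes between 1935 and 6166 TPM in wild-type and between 1634 and 2923 TPM in null mice, although Matn1, Matn3 and Col9a1 averaged below 1 TPM in both genotypes. Prg4, the lubricin gene of the joint surface, made up 72.9% to 86.0% of that sum, and the other chondrocyte genes together came to 371 to 1091 TPM in wild-type and 299 to 605 TPM in null mice. The 7 erythroid genes summed to 112600 to 198800 TPM in wild-type and 159200 to 263600 TPM in null mice, and haemoglobin genes alone took up 11.2% to 19.8% of the TPM in wild-type and 15.8% to 26.2% in null mice. The 9 osteoblast and osteocyte genes summed to 3805 to 8415 TPM in wild-type and 1985 to 4121 TPM in null mice, and the 7 osteoclast genes to 1435 to 3243 and 942 to 1933 TPM. The 8 B lineage genes summed to 373 to 478 and 207 to 436 TPM, the 7 neutrophil genes to 55630 to 109000 and 54590 to 111400 TPM, the 5 adipocyte genes to 226 to 354 and 153 to 255 TPM and the 5 skeletal muscle genes to 13.3 to 16.1 and 14.6 to 51.4 TPM. None of the markers on these lists was at 0 in all libraries. Wild-type replicate 1 stood apart, with a median Spearman correlation across genes of 0.943 with the other libraries where the other 9 had 0.961 to 0.970. The erythroid and the neutrophil sums were each far above the chondrocyte sum in every library. The values below are therefore levels in a mixture and not in chondrocytes alone. Because the tissue is a mixture, fewer cells of a type and less RNA per cell cannot be told apart. The part of cell mixture in the values below was not tested.

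The 10 genes fell into 2 tiers of abundance. The upper 8 averaged between 9.65 and 20.8 TPM over the 10 mice, around the median of 13.2 TPM over all genes tested, and Ago3 and Ago1 averaged 2.20 and 1.91 TPM. The order from the top was Ago2, Tarbp2, Tnrc6a, Dgcr8, Xpo5, Drosha, Dicer1, Tnrc6b, Ago3 and Ago1. Only 2 steps in this order held in all 10 mice, that from Dgcr8 down to Xpo5 and that from Tnrc6b down to Ago3. The latter was a 4.39-fold step. The former holds for sums over all transcripts only. The leading protein-coding transcripts stood the other way, with means of 11.8 TPM for Dgcr8 and 12.8 TPM for Xpo5. Drosha was above Dicer1 in 9 of 10 mice. Neighbours among Ago2, Tarbp2, Tnrc6a and Dgcr8 could not be ordered reliably. Ago2 was above Tarbp2 in 7 mice, Tarbp2 above Tnrc6a in 8 and Tnrc6a above Dgcr8 in 4. Ago2 was above Dgcr8 in every mouse but wild-type replicate 1, with 15.44 against 19.55 TPM there. Dicer1 was above Tnrc6b in 6 mice and Ago3 above Ago1 in 6.

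**Figure D1:**
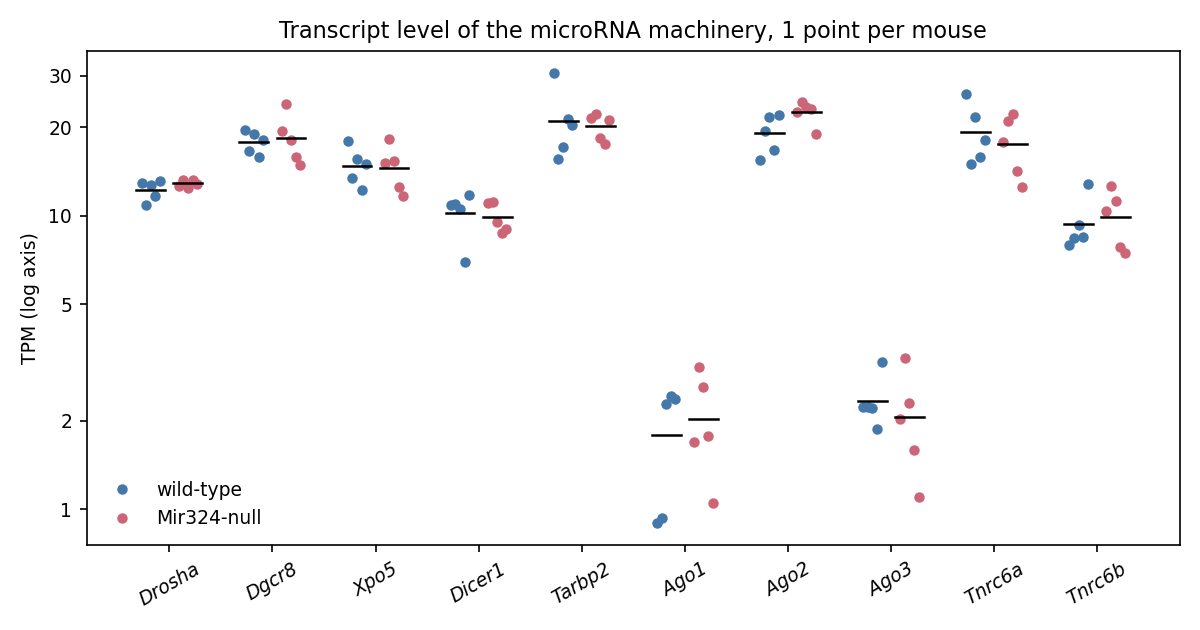
TPM of each gene on a log axis, with 1 point per mouse (blue wild-type, red Mir324-null) and a black bar at the mean of 5. The genotypes overlap in all 10 genes, Drosha is the tightest in TPM as deposited, and Ago1 and Ago3 sit well below the others.

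Drosha, the nuclear enzyme (ENSMUSG00000022191, chr15:12824815-12935291, plus strand, GRCm38 as for the genes below), was nearly constant in TPM as deposited. In wild-type replicates 1 to 5 it was at 12.9, 10.9, 12.7, 11.7 and 13.2 TPM, and in null replicates 1 to 5 at 12.7, 13.2, 12.4, 13.3 and 12.8 TPM. The highest mouse was 1.22 times the lowest, and the null mice lay within the upper part of the wild-type range or just above it. The means were 12.3 ± 0.957 and 12.9 ± 0.365 TPM (SD, n = 5 each), a log2(TPM + 1) difference of 0.067 (SE 0.0896, limma adjusted p = 0.858, exact permutation p = 0.270). It was 0.028 without wild-type replicate 2, the lowest mouse, and 0.15 after rescaling without haemoglobin genes. The SD of Drosha within a genotype was 0.080 on this scale, where the 1441 genes tested at a similar level had a median of 0.234, and 0.486% of them varied less. This low spread holds for TPM as deposited, and the SD was not computed under other scalings.

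Dgcr8, its partner (ENSMUSG00000022718, chr16:18253948-18289246, minus strand), varied more in TPM as deposited. It was at 19.5, 16.6, 18.9, 15.8 and 18.1 TPM in wild-type and at 19.4, 24.0, 18.2, 15.9 and 14.9 TPM in null mice. Null replicate 2 was the highest of all and null replicate 5 the lowest, so the null range enclosed the wild-type one. The difference was 0.035 (SE 0.128, exact permutation p = 0.825, limma adjusted p = 0.959), and it ranged from -0.060 without null replicate 2 to 0.10 without null replicate 5 (0.067 without wild-type replicate 1). The log2 ratio of Dgcr8 to Drosha, which does not depend on how a library is scaled, was 0.54 ± 0.080 in wild-type and 0.50 ± 0.27 in null mice (SD, n = 5, exact permutation test, two-sided, p = 0.825, 1.0 after adjustment over 5 ratios). In linear terms Dgcr8 was 1.36 to 1.52 times Drosha in wild-type and 1.16 to 1.81 times in null mice.

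Xpo5, the export receptor (ENSMUSG00000067150, chr17:46202782-46243598, plus strand), moved with Dgcr8 in TPM as deposited. It was at 17.99, 13.4, 15.6, 12.2 and 15.0 TPM in wild-type and at 15.1, 18.3, 15.4, 12.6 and 11.7 TPM in null mice, with no separation of the genotypes. Its difference was -0.026 (SE 0.139, exact permutation p = 0.841, limma adjusted p = 0.972), and the sign turned without wild-type replicate 1 (0.042), null replicate 4 (0.020) or null replicate 5 (0.045). With all transcripts summed, Dgcr8 was 1.24 ± 0.0672 times Xpo5 across the 10 mice (mean ± SD). The ratio lay between 1.09 in wild-type replicate 1 and 1.31 in null replicate 2. Of all pairs in the group these profiles were the closest, with a root mean square difference of 0.369 after each gene was standardised over the 10 mice. Tnrc6a was the next nearest to Xpo5 (0.432), and Ago2 the farthest from it (1.29). The profiles share the scaling of the libraries. With median ratio scaling the limma SE fell from 0.139 to 0.086 for Xpo5 and from 0.128 to 0.083 for Dgcr8. What part scaling had in the likeness was not tested.

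Dicer1 encodes the cytoplasmic enzyme (ENSMUSG00000041415, chr12:104687742-104751952, minus strand). It was at 10.9, 10.99, 10.5, 6.94 and 11.7 TPM in wild-type and at 11.03, 11.2, 9.55, 8.76 and 9.03 TPM in null mice. Wild-type replicate 4 was the lowest of the 10 and stood off from the other wild-type mice, and the 5 null mice lay inside the wild-type range. The means were 10.2 ± 1.88 and 9.90 ± 1.12 TPM (SD, n = 5), and the difference was -0.027 (SE 0.141, 95% interval -0.34 to 0.28, exact permutation p = 0.913, limma adjusted p = 0.972). Without wild-type replicate 4 it was -0.15, and leaving out wild-type replicate 5 gave 0.024. The log2 ratio of Dicer1 to Drosha was -0.29 ± 0.28 in wild-type and -0.39 ± 0.17 in null mice (SD, n = 5, exact permutation p = 0.524, adjusted 0.873). The difference of -0.10 became -0.22 when wild-type replicate 4 was left out and -0.026 when wild-type replicate 2 was.

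Tarbp2 encodes the Dicer partner TRBP (ENSMUSG00000023051, chr15:102518192-102523676, plus strand). It was at 30.6, 15.6, 17.1, 21.3 and 20.5 TPM in wild-type and at 21.5, 22.2, 18.5, 17.5 and 21.3 TPM in null mice. The high value was that of wild-type replicate 1, and the null mice were tighter, with a coefficient of variation of 10.3% against 27.9%. The difference of -0.024 (SE 0.161, exact permutation p = 0.944, limma adjusted p = 0.976) became 0.12 without that mouse. Tarbp2 was 1.42 to 3.07 times Dicer1 in wild-type and 1.93 to 2.35 times in null mice, and the log2 ratio differed by 0.0039 between genotypes (exact permutation p = 1.0, adjusted 1.0).

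Among the Argonautes, Ago2 dominated. It held 73.2% ± 2.86 of the summed TPM of Ago1 to Ago4 in wild-type and 78.2% ± 4.16 in null mice (SD, n = 5). Ago2 is the Argonaute that can cut its target (ENSMUSG00000036698, chr15:73095844-73184935, minus strand). It was at 15.4, 19.4, 21.8, 16.8 and 22.1 TPM in wild-type and at 22.6, 24.5, 23.4, 23.2 and 19.0 TPM in null mice. Of the 5 null mice, 4 were above the highest wild-type mouse, and null replicate 5 was within the wild-type range. The means were 19.1 ± 2.95 and 22.5 ± 2.10 TPM (SD, n = 5), a difference of 0.24 (SE 0.120, 95% interval -0.025 to 0.50). The difference did not pass, with a limma p of 0.0727, an adjusted p of 0.484 and an exact permutation p of 0.0635. The direction held in every alternative that was run, and the estimate was 0.17 without wild-type replicate 1, the lowest mouse, and 0.32 after rescaling without haemoglobin genes. Its unadjusted limma p was under 0.05 after that rescaling (0.0167), with median ratio scaling (0.0321) and with quantile normalization (0.0376), with adjusted p between 0.288 and 0.355. Over all the alternatives run, the adjusted p lay between 0.288 and 0.754.

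Ago1 (ENSMUSG00000041530, chr4:126435012-126468583, minus strand) and Ago3 (ENSMUSG00000028842, chr4:126331704-126429556, minus strand), which load microRNAs as Ago2 does, were low. Ago1 was at 0.899, 0.932, 2.28, 2.43 and 2.38 TPM in wild-type and at 1.69, 3.06, 2.60, 1.77 and 1.05 TPM in null mice, so that each genotype held both low and high mice. The difference was 0.14 (SE 0.247, exact permutation p = 0.619, limma adjusted p = 0.907), 0.010 without wild-type replicate 1 and 0.27 without null replicate 5. Ago3 was at 2.22, 2.23, 2.21, 1.87 and 3.18 TPM in wild-type and at 2.03, 3.26, 2.30, 1.59 and 1.097 TPM in null mice, and its difference was -0.16 (SE 0.195, exact permutation p = 0.421, limma adjusted p = 0.838) and -0.032 without null replicate 5. At this level the added 1 TPM of the log scale shrinks differences. Ago4, the remaining paralog, averaged 2.82 ± 0.658 and 2.35 ± 0.487 TPM (SD, n = 5, difference -0.18, exact permutation p = 0.254, limma adjusted p = 0.738). Ago2 was 3.91 to 6.13 times the sum of Ago1 and Ago3 in wild-type and 3.87 to 8.86 times in null mice. The log2 ratio was 2.23 ± 0.27 and 2.55 ± 0.46 (SD, n = 5), a difference of 0.32 within the spread between mice (exact permutation p = 0.270, adjusted 0.873), and it was 0.17 without null replicate 5, whose ratio was the highest, and 0.47 without null replicate 2, whose ratio was the lowest.

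The GW182 scaffolds were led by Tnrc6a, with 51.2% ± 5.10 of the summed TPM of the 3 paralogs in wild-type and 48.6% ± 1.77 in null mice (SD, n = 5). Tnrc6a (ENSMUSG00000052707, chr7:123123885-123195296, plus strand) was at 26.1, 15.0, 21.7, 15.9 and 18.1 TPM in wild-type and at 17.9, 21.0, 22.2, 14.2 and 12.6 TPM in null mice. Wild-type replicate 1 was the highest and null replicates 4 and 5 the lowest, and the difference was -0.13 (SE 0.185, exact permutation p = 0.500, limma adjusted p = 0.860), or -0.025 without wild-type replicate 1 and -0.029 without null replicate 5. With protein-coding transcripts only it was -0.29. Tnrc6b (ENSMUSG00000047888, chr15:80711313-80941085, plus strand) was at 7.92, 8.41, 9.31, 8.47 and 12.8 TPM in wild-type and at 10.4, 12.7, 11.3, 7.85 and 7.44 TPM in null mice. It was spread about equally in both genotypes and differed by 0.066 (SE 0.168, exact permutation p = 0.714, limma adjusted p = 0.937), a value that was 0.016 without wild-type replicate 1, -0.021 without null replicate 2 and 0.17 without wild-type replicate 5. Tnrc6c, the remaining paralog, averaged 8.84 ± 1.40 and 8.50 ± 1.43 TPM (SD, n = 5, difference -0.054, exact permutation p = 0.714, limma adjusted p = 0.942). The log2 ratio of Tnrc6a to Tnrc6b was 1.04 ± 0.46 in wild-type and 0.82 ± 0.099 in null mice (SD, n = 5, exact permutation p = 0.373, adjusted 0.873). Tnrc6a was 3.29 times Tnrc6b in wild-type replicate 1 and 1.41 to 2.33 times in the other 9 mice, and without wild-type replicate 1 the log2 difference was -0.044.

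Over the group, 0 of 10 genes had an adjusted p under 0.05 and 0 an unadjusted p under 0.05 (limma). The background for the second rule was 11.6% of all genes tested, and for the first 0%. In none of the 10 did the genotypes fail to overlap, against 1.94% of all genes. In null mice 5 of the genes had a higher mean and 5 a lower one, and the median difference was 0.0053 where that of all genes was -0.045. This balance depended on scaling. When libraries were scaled by median ratios, by quantiles or to a total without haemoglobin genes, 8 were higher and 2 lower, since the estimates of Xpo5, Dicer1 and Tarbp2 were then above 0. The median over all genes moved to 0.0033, 0.0038 and 0.036 under these scalings. Ago3 and Tnrc6a were below 0 and the other 5 above 0 under all 4 scalings. The intervals limit the size of a difference that could have gone unseen, but only for TPM as deposited. For Drosha the 95% interval ran from 0.914-fold to 1.2-fold of the wild-type level and for Dicer1 from 0.792-fold to 1.22-fold. For Ago1 it ran from 0.755-fold to 1.60-fold and for Ago2 from 0.983-fold to 1.41-fold. The interval of Ago3 reached down to 0.667-fold and that of Tnrc6a to 0.688-fold. All are on the TPM + 1 scale.

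**Figure D2:**
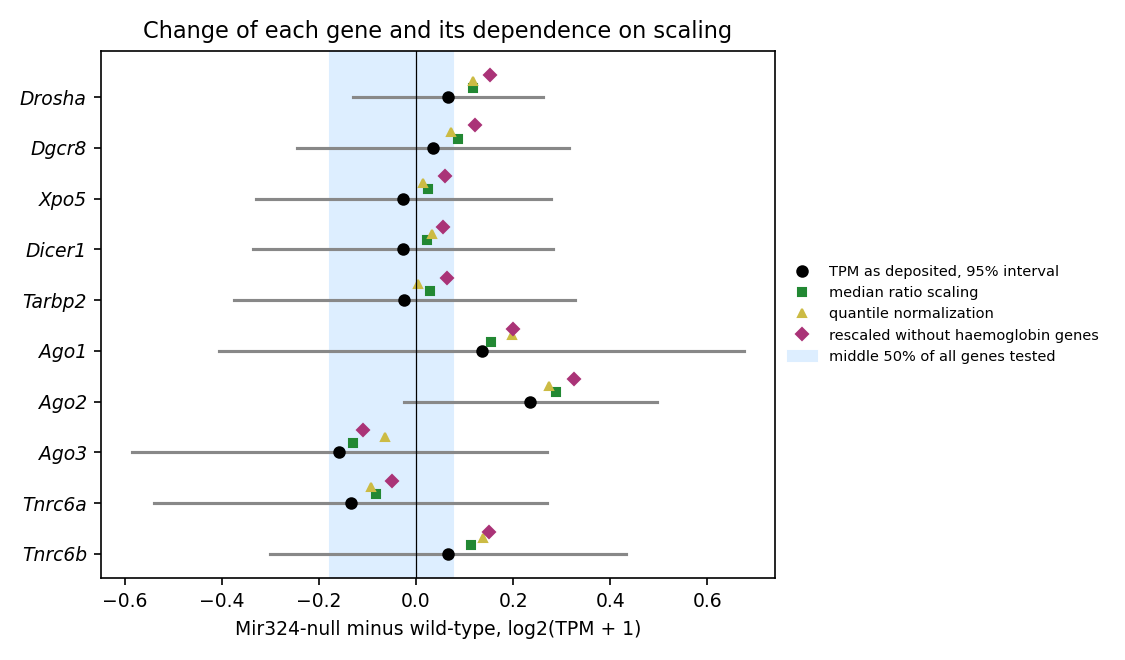
Null minus wild-type difference of each gene on the log2(TPM + 1) scale, with the 95% interval of the limma fit on TPM as deposited (black point, grey line), the estimates under 3 other scalings (coloured symbols) and the middle 50% of all genes tested (blue band). All 10 intervals include 0, and the interval of Ago2 reaches down to -0.025.

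Several of the 10 genes deviated together in single mice. With TPM as deposited, all 10 genes were above their own mean in null replicate 2 and in wild-type replicate 5, whereas 2 of 10 were above it in wild-type replicates 2 and 4 and in null replicates 4 and 5. With median ratio scaling these counts drew closer together, to 8 in null replicate 2, 6 in wild-type replicate 5, 2 in wild-type replicates 2 and 4, 3 in null replicate 4 and 4 in null replicate 5. Wild-type replicate 1 went from 7 to 3. The 10 genes summed to 153 TPM in null replicate 2 and to 111 TPM in null replicate 5, the extremes of the series. Null replicates 4 and 5 also had the largest haemoglobin shares, 23.4% and 26.2%, and TPM forces all libraries to one total. The other low mice, wild-type replicates 2 and 4, had smaller shares of 16.5% and 18.8%. Wild-type replicate 3, at 19.8%, had 8 genes above their own mean, and null replicate 3, at 20.6%, had 7. With libraries rescaled to the same total without haemoglobin genes, the sums were 182 in null replicate 2, 152 in null replicate 4 and 150 in null replicate 5, and the lowest was then 136 in wild-type replicate 2. By genotype the summed level was 128 ± 14.1 TPM in wild-type mice and 130 ± 16.9 TPM in the null (SD, n = 5), and 152 ± 13.2 and 164 ± 13.3 after that rescaling. What part haemoglobin had in the differences between mice was not tested further.

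**Figure D3:**
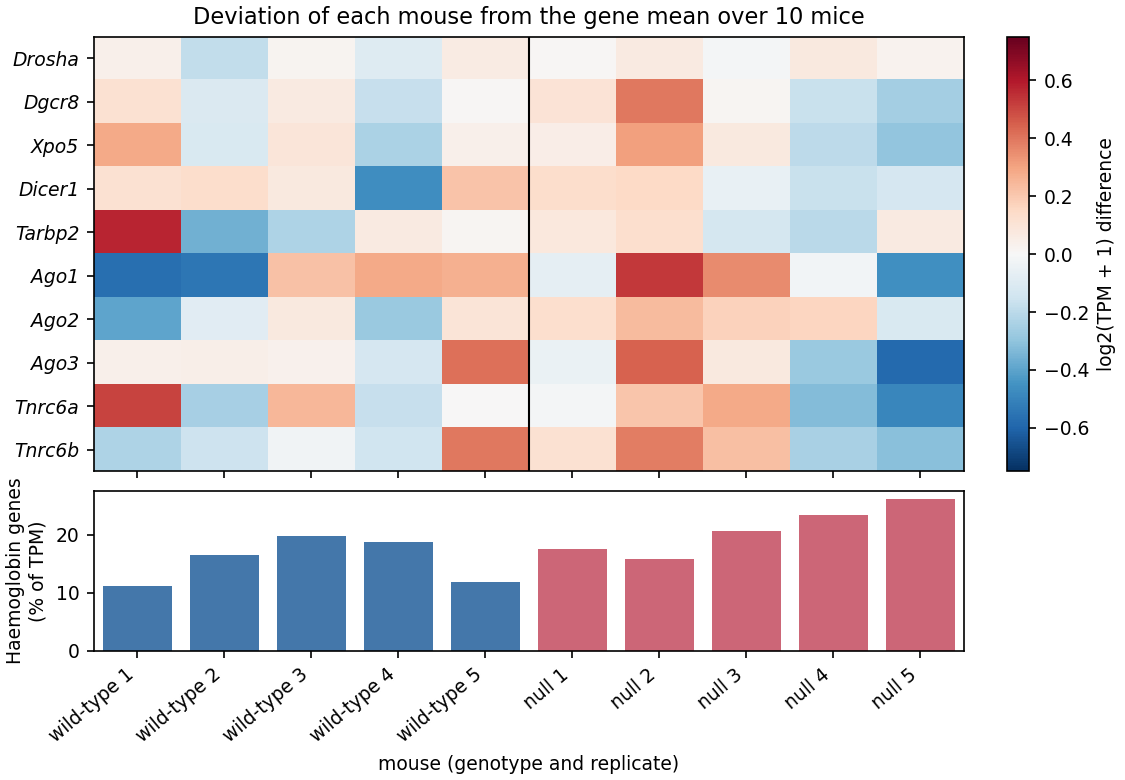
Deviation of each mouse from the mean of each gene over the 10 mice, in log2(TPM + 1) units (top, red above and blue below), and the share of TPM held by haemoglobin genes in the same mice (bottom, blue bars wild-type, red bars Mir324-null). Null replicate 2 is above the mean in every row, and null replicates 4 and 5, with the tallest bars, are below it in most rows. Wild-type replicates 2 and 4, with shorter bars, are also below it in most rows.

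Spread between mice differed by gene. Within a genotype the SD on the log2(TPM + 1) scale ran from 0.080 for Drosha and 0.18 for Ago2 to 0.32 for Tnrc6a and 0.42 for Ago1. Set against genes of similar level, Tnrc6a was more variable than 80.2%, Tarbp2 than 70.8% and Ago1 than 68.1%, and Ago2 than 33.5%. Apart from Drosha, none of the 10 was at an extreme. These ranks are for TPM as deposited and were not computed under other scalings. With median ratio scaling the limma SE of Drosha was no longer the smallest, at 0.089 beside 0.083 for Dgcr8 and 0.086 for Xpo5.

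The table is given per transcript, which allows the make-up of each gene to be read. In all 10 genes the leading transcript was annotated as protein coding, but its share differed widely. It held 98.8% ± 2.60 of the TPM of Ago2 and 90.8% ± 4.71 of that of Tnrc6b (SD, n = 10), and 50.1% ± 7.19 of that of Dicer1. In Dicer1 the full-length transcript of 9851 bases and 27 exons averaged 5.02 TPM, and the second, a model of 4724 bases with no annotated reading frame, held 37.2% ± 5.06 of the TPM, between 24.9% and 41.9%. Dgcr8 had a similar second model of 1246 bases, with 21.5% ± 7.17. These shares rest on kallisto's division of reads among overlapping transcripts, which is an estimate.

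**Figure D4:**
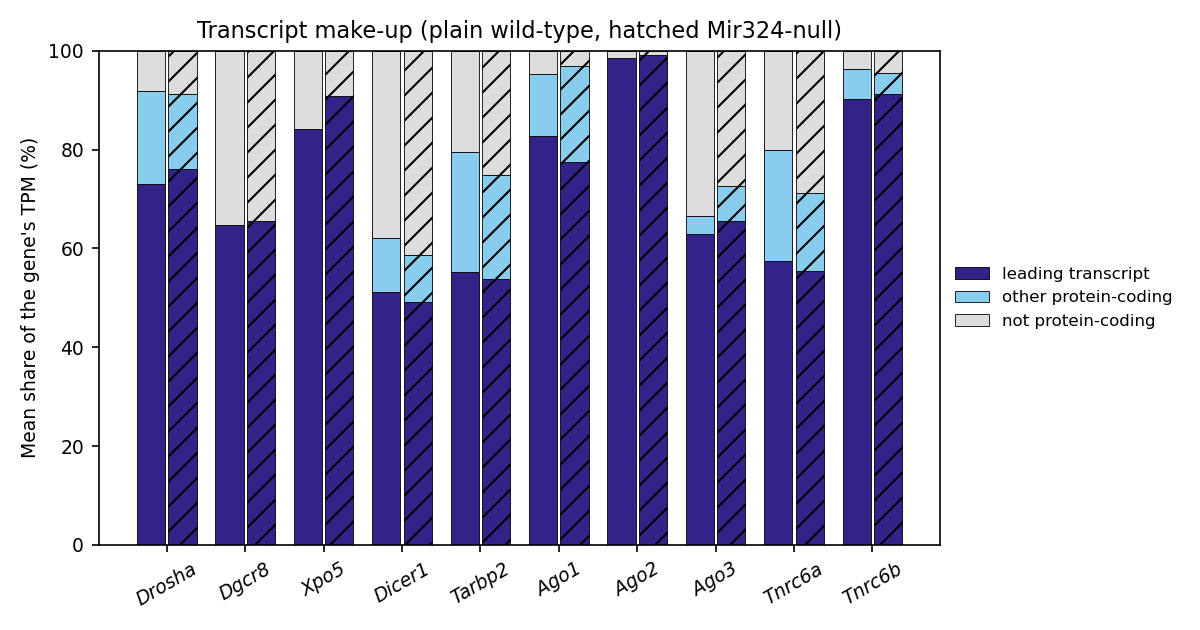
Mean share of the TPM of each gene held by its leading transcript, by other protein-coding transcripts and by transcripts without that annotation, for 5 wild-type mice (plain bars) and 5 Mir324-null mice (hatched bars). Ago2 consists almost entirely of its leading transcript, while 37.9% of Dicer1 in wild-type and 41.3% in null mice lies outside protein-coding models.

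The share of the leading transcript did not differ between genotypes in any of the 10 genes beyond the spread between mice. Differences ran from -5.28 percentage points for Ago1 to 6.71 for Xpo5, with exact permutation p from 0.619 to 1.0 and adjusted p of 0.891 or more over the 10 shares. Wild-type replicate 1 had the lowest leading share in Drosha, Xpo5 and Tarbp2. In that mouse the leading Drosha transcript had 4.29 TPM and the other coding one 8.59 TPM, so that the leading share was 33.2%, and a transcript of Xpo5 with a retained intron reached 7.19 TPM, or 39.97% of the gene, where the other 9 mice had at most 1.63 TPM. The sum over Drosha transcripts in the same mouse, 12.9 TPM, was like that of the others.

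The share of all protein-coding transcripts was looked at next, and its test was added after the values had been seen. In Tnrc6a it was 78.7%, 80.6%, 80.0%, 78.4% and 81.4% in wild-type and 76.3%, 64.3%, 75.6%, 76.0% and 63.8% in null mice. All 5 null mice lay below the lowest wild-type mouse. The means were 79.9% ± 1.26 and 71.2% ± 6.55 (SD, n = 5), a difference of -8.65 percentage points with an exact permutation p of 0.00794, the smallest 5 against 5 mice can give, and 0.0794 after adjustment over the 10 genes, so that it did not pass. Leaving out single mice gave differences from -9.93 to -6.79 percentage points, with adjusted p from 0.0794 to 0.3175 (exact permutation test). Over the 9713 genes in which this share could be compared, the genotypes did not overlap in 0.659%, and in 0.412% with null mice lower. One contributor was a coding fragment of 463 bases, at 3.18 ± 1.28 TPM in wild-type mice and 1.26 ± 1.05 TPM in the null (SD, n = 5), while the full-length transcript of 8183 bases was at 10.9 ± 1.82 and 9.65 ± 1.81 TPM. In the other 9 genes the genotypes overlapped in this share, with adjusted p of 0.794 or more (exact permutation test).

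The rest of the pathway was read from 71 further genes in 4 lists by step, 69 of which were tested. At an unadjusted limma p under 0.05 there were 3 higher and 1 lower, which is 5.8% against the background of 11.6% (4.28% higher and 7.3% lower), and 0 passed adjustment. The split of that background into higher and lower genes moved with scaling, from 592 higher and 1011 lower as deposited to 1218 higher and 577 lower after rescaling without haemoglobin genes. Of the 14 genes of the nuclear step, 10 were higher and 4 lower with a median of 0.064. Of 9 genes of the Dicer step and of precursor modification 5 were higher (median 0.025), of 12 genes of Argonaute loading and turnover 6 (median -0.0085) and of 34 genes of silencing and decay 16 (median -0.0067). Over all genes tested, 5534 of 13841 were higher, with a median of -0.045. These counts also moved with scaling. After rescaling without haemoglobin genes 13 genes of the nuclear step, 6 of the Dicer step, 9 of Argonaute loading and 29 of silencing and decay were higher, beside 57.6% of all genes, and with median ratio scaling 12, 6, 8 and 23, beside 50.7%. With quantile normalization they were 11, 6, 6 and 22, beside 50.8%.

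By the rule for naming, which asked for an unadjusted p under 0.05 and no overlap between genotypes, no gene of these lists qualified. The 4 with an unadjusted p under 0.05 are given after their values were seen. Pabpc4, a cytoplasmic poly(A)-binding protein, was at 99.1 ± 14.7 TPM in wild-type mice and 128 ± 6.98 TPM in the null (SD, n = 5), a difference of 0.37 (SE 0.103, exact permutation p = 0.0159, limma adjusted p = 0.291). Pabpc1, the main protein of this kind and the partner that GW182 proteins bind, was at 830 ± 86.5 and 962 ± 56.1 TPM (SD, n = 5, difference 0.22, exact permutation p = 0.0238, limma adjusted p = 0.380). Tut7, a terminal uridylyltransferase that adds uridines to microRNA precursors, was at 81.6 ± 8.50 and 97.1 ± 8.85 TPM (SD, n = 5, difference 0.25, exact permutation p = 0.0238, limma adjusted p = 0.366). Ajuba, a LIM protein, was at 1.86 ± 0.492 and 1.19 ± 0.393 TPM (SD, n = 5, difference -0.39, exact permutation p = 0.0476, limma adjusted p = 0.425). In each of the first 3, all 5 null mice were above the wild-type mean, and in Ajuba none was. Erh, a small protein that binds Dgcr8, was the 1 gene of the 69 without overlap, where 1.94% of all genes tested had none. It was at 101 to 122 TPM in wild-type and 123 to 139 TPM in null mice (limma adjusted p = 0.464). Its exact permutation p of 0.00794 follows from the lack of overlap for which it was named, and adds nothing to it.

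**Figure D5:**
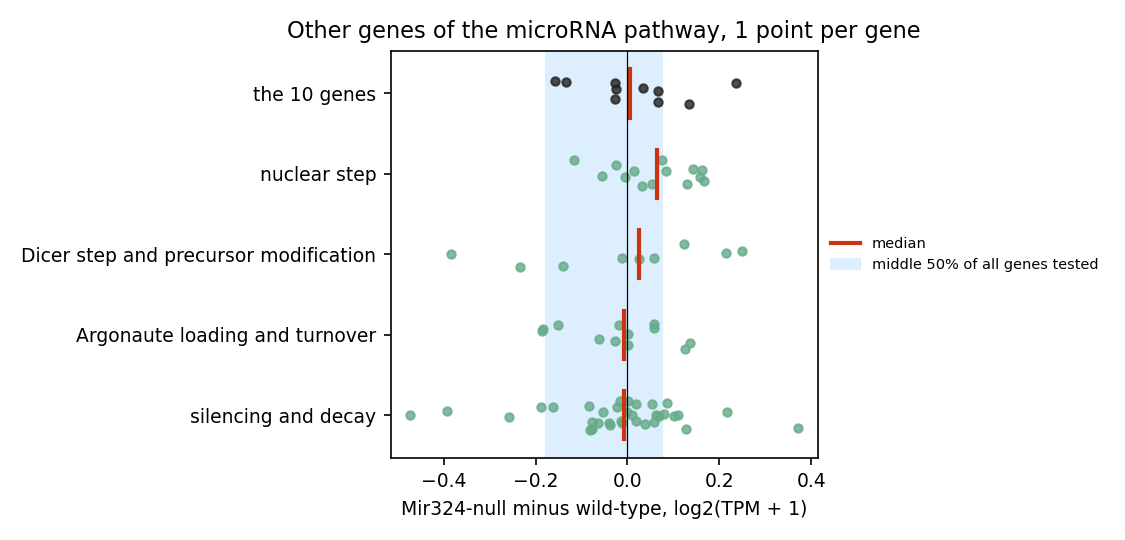
Null minus wild-type difference on the log2(TPM + 1) scale for the 10 genes (black) and for 69 other genes of the pathway in 4 lists (green), with 1 point per gene, the median of each list (red bar) and the middle 50% of all genes tested (blue band). The list medians lie between -0.0085 and 0.064, and Pabpc4 is the point farthest to the right.

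Genes whose profile over the 10 mice was most like that of Dicer1 or of Ago2 were listed from 9670 named genes that averaged 5 TPM or more, by the root mean square difference of standardised values. For Dicer1 they were Abcf1 (0.317), Svil (0.383) and Lonp2 (0.385), where the median over all candidates was 1.16. For Ago2 they were Gapvd1 (0.308), Tut7 (0.317) and Hipk1 (0.319), against a median of 1.33. Tut7 is thus both among the pathway genes and the second nearest of all candidates to Ago2, and both genes were lowest in wild-type replicate 1. This likeness is a ranking over 10 libraries that share their scaling, with no test. Values were standardised over both genotypes together, so a difference between genotypes enters the likeness. That difference was 0.23 for Gapvd1, 0.25 for Tut7 and 0.19 for Hipk1, beside 0.24 for Ago2.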

How the data were processed

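RNA from the knee cartilage of 10 mice had been sequenced. The authors deposited one table of TPM per transcript, with 1 column per mouse and each column summing to 1000000. It was made with kallisto, per the submitters' processing notes, which name no version and list GRCh38, a human build, although the identifiers are those of mouse transcripts. The members and lists were chosen with earlier results of these data known. TPM holds no counts, so depth is unknown.

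Transcripts were matched without version to GENCODE M21 (GRCm38): 115440 of 116912 matched, and the others held 0.275% to 0.356% of a library's TPM. TPM was summed per gene, and genes that averaged 1 TPM or more were compared as log2(TPM + 1) with limma 3.58.1 (R 4.3.3, eBayes with trend, two-sided, Benjamini-Hochberg over 13841 genes, threshold 0.05), over all 10 libraries with no covariate, as no batch was labelled. Each library came from a separate mouse, per the series' design text. Ratios and shares were compared with exact permutation tests (Python 3.11.15). Named genes were the 10 members, Ago4, Tnrc6c, the nearest profiles and list genes past an unadjusted p of 0.05 without overlap, which none met; the 4 list genes past that p and Erh were named after their values were seen. Seed matches used the longest 3′ UTR with a stop codon; microRNA sequences are RefSeq's. Protein sequences were not used here. The limma and permutation code was tested on simulated data. Alternatives covered pseudocount, filter, scaling, variance model, transcript type, pairing and each mouse left out.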

Additional observations from a re-analysis of the deposited data

Results flagged for a closer look

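Within each genotype, the levels of the 10 genes and the 5 ratios were examined for a mouse far from the others, 30 groups of 5 in all, of which chance alone flags about 1 in 20. Of these, 2 stood out. Dicer1 was at 6.94 TPM in wild-type replicate 4, and the gap to the next mouse was 0.79 of the wild-type range on the log2(TPM + 1) scale. The ratio of Tarbp2 to Dicer1 was 2.35 in null replicate 5, with a gap of 0.828 of the range. The other 4 null mice lay close together, from 1.93 up to 1.999.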

How the results depend on the processing

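No gene was called at an adjusted p under 0.05 in the 9 alternatives that kept all mice, and between 0 and 1 when single mice were left out, with 1 gene without wild-type replicate 3, wild-type replicate 4 or null replicate 1 (limma). With all mice, 1603 genes had an unadjusted p under 0.05. The number of the 10 genes with an unadjusted p under 0.05, which was 0, was 1 after median ratio scaling, after quantile normalization and after rescaling without haemoglobin genes, and between 0 and 1 without single mice. That gene was Ago2 each time. Of the 13841 genes tested, 1763, 1813 and 1795 had such a p under these 3 scalings, and between 1106 and 1927 without single mice. With all mice kept, directions turned for 3 genes, and with single mice left out for these and for Dgcr8 and Tnrc6b. Xpo5 was at 0.025 after median ratio scaling, 0.014 after quantile normalization, 0.059 without haemoglobin and 0.10 with protein-coding transcripts only, Dicer1 at 0.023, 0.033 and 0.056 and Tarbp2 at 0.029, 0.0039 and 0.063 under the 3 scalings. With protein-coding transcripts only, the ratio of Tarbp2 to Dicer1 differed by -0.0013, and the leading share by 1.47 for Dicer1, 2.39 for Tarbp2, -2.63 for Ago3 and 6.76 percentage points for Tnrc6a. The cause was not tested.

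Without single mice the differences ran from -0.060 to 0.10 for Dgcr8, -0.11 to 0.045 for Xpo5, -0.15 to 0.024 for Dicer1, -0.12 to 0.12 for Tarbp2 and -0.021 to 0.17 for Tnrc6b. The ratios ran from -0.13 to 0.034 for Dgcr8 to Drosha and -0.13 to 0.15 for Tarbp2 to Dicer1. Leading shares ran from -12.8 to 4.24 for Ago1, -0.801 to 1.53 for Ago2, -2.38 to 7.64 for Ago3, -0.814 to 3.08 for Dgcr8, -4.93 to 0.593 for Dicer1, -7.00 to 7.63 for Drosha, -4.61 to 2.19 for Tarbp2, -1.11 to 2.79 for Tnrc6b and -0.984 to 9.77 for Xpo5. The protein-coding share of Tnrc6a stayed between -9.93 and -6.79.

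Deviations of same-numbered mice correlated across genes at -0.144 to 0.0564 over the 5 pairs, and 0 libraries correlated best with their own number, so the numbers were not taken to pair the mice. With the replicate block, 1168 genes had an unadjusted p under 0.05, Ago2 kept its difference of 0.24 at an unadjusted limma p of 0.124, and 0 genes were called.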
